A study of Mus musculus with 10 samples.

Results

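The genes described here write, maintain and remove DNA methylation. They are the DNA methyltransferases Dnmt1, Dnmt3a and Dnmt3b, the hemimethylated-DNA readers Uhrf1 and Uhrf2, the dioxygenases Tet1, Tet2 and Tet3, and the isocitrate dehydrogenases Idh1 and Idh2. They were chosen by symbol, and all 10 were found among the 24544 genes of the count table. All 10 also passed the filter on low counts, with between 126 and 6884 counts in any library.

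The libraries came from long-term hematopoietic stem cells, the bone marrow cells that sustain blood formation over long periods. Every mouse was of the Hoxb5-mCherry strain, which carries a fluorescent reporter of Hoxb5, and was 2 to 3 months old. Both groups were sorted as Lin-, cKIT+, SCA1+, CD150+, CD48-, FLK2-, CD34- and Hoxb5+, so the comparison lies within Hoxb5+ cells. They differed in surface neogenin-1. There were 5 NEO1+ and 5 NEO1- libraries, each made by Smart-seq2 from 250 to 500 cells of 2 pooled mice. Whether the libraries of a group came from separate mice is not stated, so p-values measure the spread between these libraries.

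DNA methylation is copied after each round of replication. UHRF1 binds hemimethylated CpG sites behind the fork and recruits DNMT1, which methylates the daughter strand, whereas DNMT3A and DNMT3B can methylate sites without a methylated template. TET enzymes oxidise 5-methylcytosine and use 2-oxoglutarate, a product of the reactions that IDH1 and IDH2 catalyse. Loss-of-function mutations of DNMT3A and TET2 and neomorphic mutations of IDH1 and IDH2 are well known from clonal hematopoiesis and myeloid leukemia.

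Library totals ran from 21.2 to 38.9 M counts. The transcript of the sorting marker, Neo1, lay between 48.6 and 64.8 CPM in 4 NEO1+ libraries (CPM, the count divided by the TMM-scaled library size in M) and between 4.56 and 18.9 CPM in the NEO1- group. NEO1+ library 4 had 12.5 CPM of Neo1, inside the NEO1- range. Without it the edgeR log2 fold changes (NEO1+ over NEO1-) of the 10 genes kept their sign except for Dnmt3a (-0.0056); that of Tet3 was 0.11 and that of Idh1 0.12, and those of Uhrf1 and Tet1 are given with each gene. All 9 stem cell markers examined were in the table. Their summed level overlapped between groups (NEO1+ 1970 to 2240 CPM, NEO1- 1930 to 2380 CPM). Of the 9, 8 had counts in every library, while Hoxb5 had 0 counts in NEO1- library 3 and 7 in NEO1- library 1. The overlap of the sum did not hold for Hoxb5 alone. Its smallest NEO1+ value (2.45 CPM, library 1) lay just above its largest NEO1- value (2.43 CPM, library 4). In the same order of groups, the 7 granulocyte and monocyte markers summed to 155 to 1730 CPM and 146 to 2770 CPM, with the highest sum of each group in its library 3. The 6 erythroid markers summed to 22.8 to 315 CPM and 9.74 to 199 CPM (Hbb-bt at 0 counts in all libraries), the 6 lymphoid markers to 34.1 to 50.3 CPM and 25 to 60.9 CPM (Cd3e and Dntt among those at 0 in all), and the 5 megakaryocyte markers to 71.2 to 130 CPM and 58.2 to 105 CPM. In bulk libraries, fewer cells of a type and less RNA per cell cannot be told apart.

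The member with the widest separation between the groups was Uhrf1, which was 2.65-fold higher in the mean of NEO1+ libraries, in the direction that replication genes also took. Dnmt1 was 1.35-fold higher in mean with overlapping groups. Tet1 stood at 0.544 of its NEO1- mean, and Dnmt3a, Dnmt3b, Uhrf2, Idh1 and Idh2 had group means within 10% of each other. By edgeR's quasi-likelihood test, with p-values adjusted by Benjamini-Hochberg across all 12203 tested genes, 0 of the 10 members passed an adjusted p of 0.05, as did 0% of all genes. At an unadjusted p under 0.05 there were 2 members, against 6.6% of all genes: Uhrf1, higher in NEO1+ like 3.11% of genes, and Tet1, lower like 3.49%. DESeq2 called 1 member, Uhrf1, where it called 1% of the genes it tested, and limma-voom and limma-trend called 0.

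**Figure D1:**
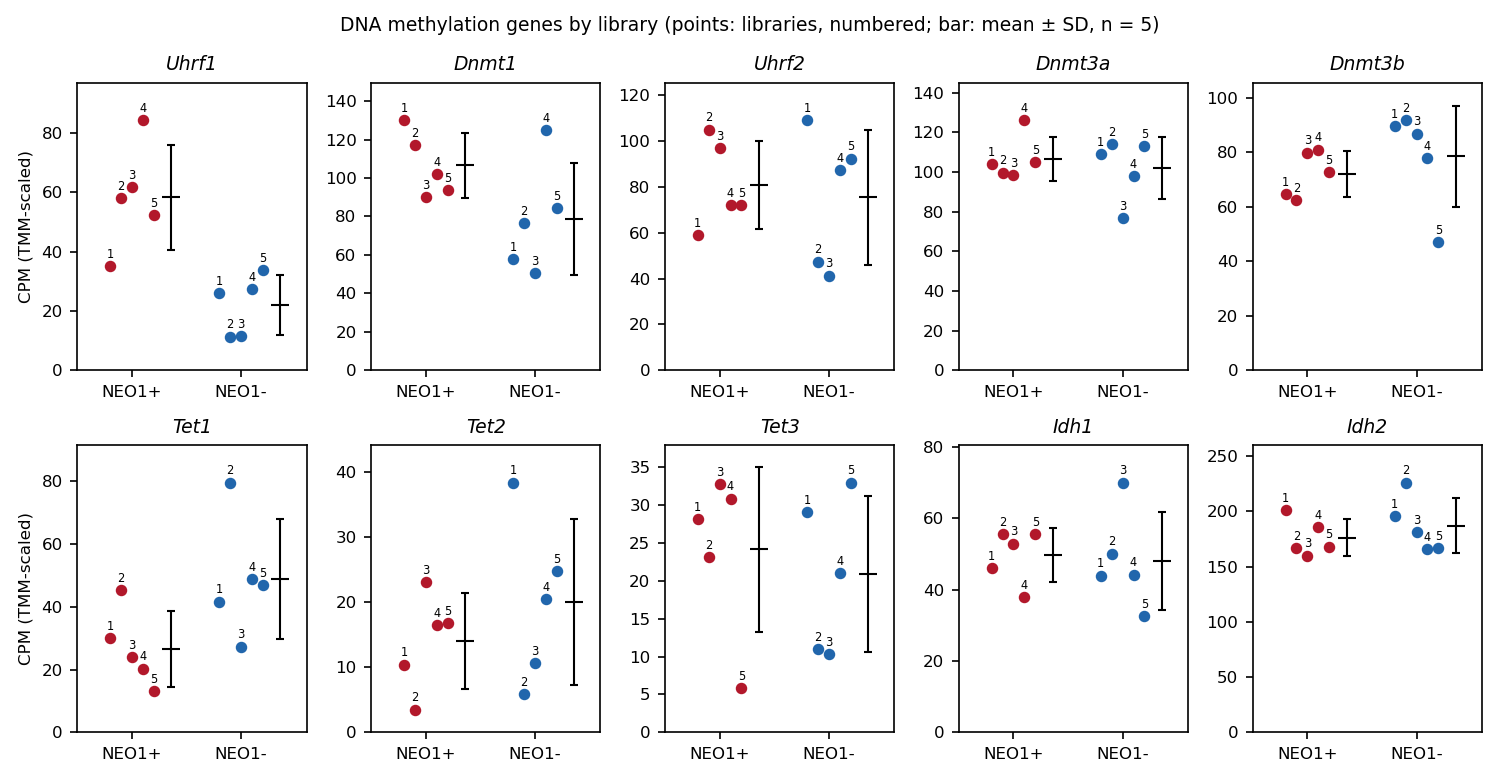
CPM of the 10 genes in each library (points, numbered by library; red NEO1+, blue NEO1-), with the mean and SD of 5 libraries beside them and each axis starting at 0. The 5 NEO1+ points of Uhrf1, from 35 to 84.2 CPM, all lie above the NEO1- points, whereas the groups overlap for the other 9 genes.

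Uhrf1 (chromosome 17, 56303321 to 56323486, plus strand, GENCODE M21 on GRCm38) encodes the reader that couples methylation to the replication fork. NEO1+ libraries 1 to 5 held 35, 58.1, 61.7, 84.2 and 52.2 CPM of Uhrf1. NEO1- libraries 1 to 5 held 25.9, 11.3, 11.5, 27.4 and 33.7 CPM. The groups did not overlap, although NEO1+ library 1 and NEO1- library 5 lay close together. No overlap was seen for 1 of the 10 members, against 2.48% of all genes in either direction and 1.35% with NEO1+ higher. The means were 58.3 ± 17.8 CPM and 22 ± 10.1 CPM (± SD of 5 libraries here and below), and edgeR put the log2 fold change at 1.41 ± 0.34 (± SE here and below; adjusted p 0.297, unadjusted 0.00117). The direction was the same without NEO1+ library 4 (1.23 ± 0.36), which had both the lowest Neo1 of its group and the highest Uhrf1. DESeq2 gave 1.40 ± 0.36 with an adjusted p of 0.0147, so the call depended on the tool. On simulated data, drawn with the dispersions that edgeR estimated, 26.4% of DESeq2 calls and 2.33% of edgeR calls were false. Of the 12203 genes drawn, those changed and tested by DESeq2 were 100 at 2-fold and 100 at 4-fold. The shares of false calls belong to that design. Whether the Uhrf1 call in the real data is false was not tested. In the simulated data edgeR recovered 21.4% of 2-fold and 64.3% of 4-fold changes, and DESeq2 33% and 70%. A gene that misses the edgeR threshold is therefore not shown to be unchanged.

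Dnmt1 (chromosome 9, 20907209 to 20959888, minus strand) encodes the maintenance methyltransferase. Its level was 130, 117, 90.1, 102 and 93.7 CPM across NEO1+ libraries 1 to 5, and 57.8, 76.4, 50.5, 125 and 84.3 CPM across NEO1- libraries 1 to 5. Of the NEO1- libraries, 4 were below every NEO1+ library, and library 4 was above all NEO1+ libraries but 1. The means were 107 ± 16.8 CPM and 78.7 ± 29 CPM, and edgeR put the log2 fold change at 0.44 ± 0.22 (adjusted p 0.807, unadjusted 0.0734). Without NEO1- library 4, which also had the highest level of replication genes in its group, the log2 fold change was 0.66 ± 0.19 (edgeR adjusted p 0.34, unadjusted 0.00479). Leaving out NEO1- library 3 or 1 instead moved it to 0.31 or 0.34 (unadjusted edgeR p 0.162 and 0.153). NEO1+ libraries had counts for 12800 to 13808 genes and NEO1- libraries for 11477 to 13147, and with this number as a covariate the log2 fold change was 0.065 ± 0.26 for Dnmt1 and 0.97 ± 0.48 for Uhrf1 (unadjusted p 0.807 and 0.0666). The covariate turned the sign for Tet3 (-0.077), Uhrf2 (-0.11) and Idh2 (0.079). All NEO1- libraries but library 4 had counts for fewer genes than any NEO1+ library. The covariate thus largely followed the group, and this fit cannot fully separate them.

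Because Uhrf1 and Dnmt1 act at the replication fork, the start sites of all 10 genes were searched for the E2F word, the element bound by the E2F factors that switch on S phase genes. Sequences are the RefSeq windows of GRCm38.p6, of which the 250 bases before each start were read; all 10 members had at least 1 window, 16 in total. The words TTTCCCGC, TTTCGCGC, TTTGCCGC and TTTGGCGC were searched on both strands. Among the members, Uhrf1 and Dnmt1 held one, against 4% of the 9579 tested genes with a window (1.86% of all 32851 windows) and 5 of the 18 replication genes with a window. Both matches were TTTCGCGC, and neither overlapped CCAAT or TTTGAA, the other words searched. CCAAT occurred in 5 members (Dnmt1, Idh1, Idh2, Tet3 and Uhrf1), against 40.4% of tested genes, and TTTGAA in Dnmt1 and Dnmt3b, against 12.7%. Both stretches with an E2F word are shown with 8 bases on each side and the word in capitals; in Dnmt1 it lies on the opposite strand, so its reverse complement is printed.
Uhrf1: gagtcgggTTTCGCGCgcccaggc
Dnmt1: ttccgcgcGCGCGAAAaagccggg

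The Uhrf1 word lay at bases 56304128 to 56304135 of chromosome 17, between 185 and 178 bases before the downstream start of that gene and outside annotated exons. The Dnmt1 word lay at bases 20952835 to 20952842 of chromosome 9, between 219 and 212 bases before a downstream start. It was inside an annotated exon of transcripts Dnmt1-201 and Dnmt1-205. For Uhrf1 the whole window is given because it carries no exon, and that of its paralog Uhrf2, which had no E2F word, is given for comparison. The Uhrf1 window spans chr17:56304063-56304312 and the Uhrf2 window chr19:30030263-30030512, both on the plus strand. A word is a match of letters and no measure of binding.
Uhrf1: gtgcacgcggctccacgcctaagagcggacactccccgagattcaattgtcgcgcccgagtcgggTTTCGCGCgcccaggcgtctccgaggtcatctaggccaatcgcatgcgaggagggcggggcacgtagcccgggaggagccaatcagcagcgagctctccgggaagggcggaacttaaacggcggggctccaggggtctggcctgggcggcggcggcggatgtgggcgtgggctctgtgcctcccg
Uhrf2: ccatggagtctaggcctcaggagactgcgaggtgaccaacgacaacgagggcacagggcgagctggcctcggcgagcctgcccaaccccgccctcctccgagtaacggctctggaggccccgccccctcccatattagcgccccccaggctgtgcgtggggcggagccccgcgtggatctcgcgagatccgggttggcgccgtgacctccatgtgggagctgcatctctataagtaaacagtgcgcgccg

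Uhrf2 (chromosome 19, 30030513 to 30093722) encodes a protein with the same domains as UHRF1 that does not stand in for it in maintenance methylation. Its level was 59, 105, 97, 71.9 and 72 CPM across NEO1+ libraries 1 to 5, and 109, 47.3, 41.3, 87.2 and 92.3 CPM across NEO1- libraries 1 to 5. The NEO1- libraries spanned the whole NEO1+ range and beyond, and the log2 fold change was 0.10 ± 0.27 (edgeR adjusted p 0.998).

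Within a library, dividing one gene by another removes the library's scaling, and the following ratios were chosen after the values were seen. Uhrf1 over Uhrf2 was 0.594, 0.556, 0.636, 1.17 and 0.725 in NEO1+ libraries 1 to 5 and 0.236, 0.239, 0.28, 0.314 and 0.365 in NEO1- libraries 1 to 5. The groups did not overlap, and the gap between them was wider than for Uhrf1 alone. When divided by Uhrf2, 0.516% of all genes separated the groups in this direction. That share does not allow for the choice of Uhrf2 as divisor, whose deviations from the group means went with those of Uhrf1 (r = 0.81). Uhrf1 over Dnmt1 averaged 0.567 ± 0.21 among NEO1+ and 0.289 ± 0.129 among NEO1- libraries, with NEO1+ library 1, at 0.269, inside the NEO1- range of 0.148 to 0.448.

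**Figure D2:**
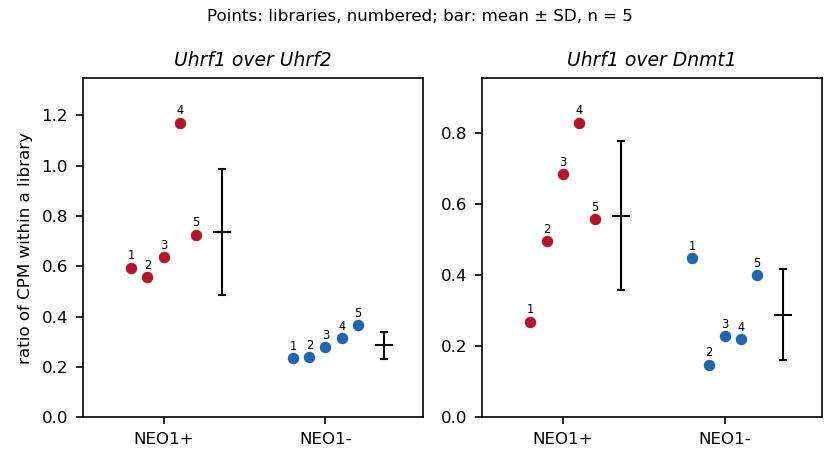
Ratio of CPM within each library (points, numbered by library) for Uhrf1 over Uhrf2 on the left and Uhrf1 over Dnmt1 on the right, with mean and SD of 5 libraries. Uhrf1 over Uhrf2 was at least 0.556 in NEO1+ and at most 0.365 in NEO1- libraries, while Uhrf1 over Dnmt1 overlapped.

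The de novo methyltransferases were at similar levels in both groups. Dnmt3a (chromosome 12, 3806007 to 3914443), whose loss lets stem cells expand, was at 104, 99.6, 98.4, 126 and 105 CPM in NEO1+ libraries 1 to 5 and at 109, 114, 76.8, 97.9 and 113 CPM in NEO1- libraries 1 to 5. The log2 fold change was 0.06 ± 0.14 (edgeR adjusted p 0.998). Dnmt3b (chromosome 2, 153649450 to 153687730) was at 64.6, 62.4, 79.9, 81 and 72.6 CPM in NEO1+ libraries and at 89.5, 91.7, 86.8, 77.9 and 46.9 CPM in NEO1- libraries, in the order of their numbers. In 3 NEO1- libraries Dnmt3b was above all NEO1+ libraries, and in NEO1- library 5 it was below all of them. Its log2 fold change was -0.12 ± 0.19 (edgeR adjusted p 0.997), and -0.26 without NEO1- library 5. Dnmt3l, the catalytically inactive partner of the de novo enzymes, had 0 counts in all libraries. With a coefficient of variation of 10.3% in NEO1+ and 15.2% in NEO1- libraries, Dnmt3a was among the least variable of the 10 genes, beside Idh2 (9.37% and 13.3%).

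In NEO1+ libraries the TET genes had the highest coefficients of variation of the 10 (44.9% to 52.8%), and in NEO1- libraries Tet2 (63.5%) and Tet3 (49.3%) did. Tet1 (chromosome 10, 62804570 to 62908996) was at 29.9, 45.3, 24, 20.3 and 13.2 CPM across NEO1+ libraries 1 to 5, and at 41.6, 79.4, 27.3, 48.7 and 46.9 CPM in NEO1- libraries 1 to 5. Of the NEO1+ libraries, 3 lay below every NEO1- library, and NEO1+ library 2 and NEO1- library 3 made the groups overlap. The means were 26.5 ± 12.1 and 48.8 ± 19 CPM, and edgeR put the log2 fold change at -0.88 ± 0.34 (adjusted p 0.633, unadjusted 0.0238). Leaving out NEO1+ library 4 moved the unadjusted edgeR p to 0.0554, leaving out NEO1+ library 5 to 0.0544, and leaving out NEO1- library 2 to 0.0869 with a log2 fold change of -0.63. In the other direction, the unadjusted edgeR p was 0.00489 without NEO1+ library 2 (log2 fold change -1.16). Without NEO1- library 3 it was 0.00913 (-1.03).

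Tet2 (chromosome 3, 133463679 to 133545139), the TET gene most often mutated in clonal hematopoiesis, was at 10.4, 3.48, 23, 16.5 and 16.8 CPM in NEO1+ libraries 1 to 5, and at 38.3, 5.9, 10.6, 20.4 and 24.7 CPM in NEO1- libraries 1 to 5. It varied 6.62-fold within NEO1+ and 6.49-fold within NEO1- libraries, wider than the 0.703 ratio between the means, and its log2 fold change was -0.51 ± 0.55 (edgeR adjusted p 0.98). Without NEO1- library 1 the log2 fold change was -0.13 and without NEO1+ library 2 it was -0.26. Tet3 (chromosome 6, 83362373 to 83459084) ranged from 5.84 to 32.7 CPM among NEO1+ and from 10.3 to 32.9 CPM among NEO1- libraries. Its log2 fold change was 0.21 ± 0.46 (edgeR adjusted p 0.998), moving to 0.46 without NEO1+ library 5 and to 0.04 without NEO1- library 3. For Tet2 and Tet3, as for the other members, libraries of at least 1 group differed from each other by more than the group means did. Uhrf1 varied 2.99-fold within NEO1- and 2.41-fold within NEO1+ libraries, beside 2.65-fold between the means.

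The isocitrate dehydrogenases were even across groups. Idh1, the cytosolic enzyme (chromosome 1, 65158616 to 65186500), ranged from 38 to 55.6 CPM among NEO1+ and from 32.6 to 70 CPM among NEO1- libraries (log2 fold change 0.04 ± 0.22, edgeR adjusted p 0.998). Idh2, the mitochondrial enzyme (chromosome 7, 80094846 to 80115392), ranged from 160 to 201 CPM and from 166 to 226 CPM (log2 fold change -0.09 ± 0.12, edgeR adjusted p 0.995). For comparison of levels between genes, CPM was divided by the length of the union of exons in GENCODE M21, which may differ from the annotation that the authors counted on. On this scale, over all 10 libraries, Idh2 was highest at 70.3 ± 8.01 CPM per kilobase (SD, n = 10), and its lowest library (62) lay above every library of the other genes. Idh1 (17.6 ± 3.79), Dnmt3b (14.8 ± 2.74) and Dnmt1 (12.6 ± 3.63 CPM per kilobase) followed within their spread of each other. The place of Uhrf1 in this order differed between groups. Among NEO1+ libraries its level was 13.7 ± 4.17 CPM per kilobase, beside 9.42 ± 2.23 for Uhrf2 and 6.4 ± 0.66 for Dnmt3a, and it lay above both in all 5 libraries. Among NEO1- libraries its level was 5.16 ± 2.37 CPM per kilobase, beside 8.79 ± 3.46 for Uhrf2 and 6.14 ± 0.933 for Dnmt3a, and it lay below Uhrf2 in all 5 and below Dnmt3a in 3. The TET genes had the lowest means over all 10 libraries and overlapped each other. Their means were 2.44 ± 1.23 for Tet1, 1.35 ± 0.606 for Tet3 and 1.01 ± 0.61 CPM per kilobase for Tet2. The highest library of Tet1 (5.13) lay above the lowest of Uhrf1 (2.65), Dnmt3a (4.62) and Uhrf2 (4.8).

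Replication was read from 22 genes of the replication machinery, such as the MCM helicase subunits, none of them a member. Of these, 21 had a positive and 1 (Chaf1b) a negative log2 fold change, with a median of 0.58, against 51% positive and a median of 0.01 over all genes tested. The list was chosen with earlier results of these data known, so such counts describe it and are no independent test. None of the 22 genes passed the adjusted threshold in edgeR. An unadjusted edgeR p under 0.05 was found for 9 of the 22, all with higher values in NEO1+, against 3.11% of all genes in that direction. Mcm4, a subunit of the MCM helicase, had the smallest p, at 101 ± 15.1 CPM against 54.3 ± 12 CPM for NEO1- libraries (log2 fold change 0.90 ± 0.18, edgeR adjusted p 0.248). Mcm3 (0.53 ± 0.17, edgeR adjusted p 0.534) and Slbp, the histone mRNA stem-loop binding protein (0.63 ± 0.20, edgeR adjusted p 0.547), came next by p (log2 fold changes). In 4 of the 22 genes the groups did not overlap with NEO1+ higher, against 1.35% of all genes. The fold of Uhrf1 exceeded those of most of these genes, with larger ones for Mcm10 (2.64 ± 1.54), Rrm2 (1.79 ± 0.95) and Cdc6 (1.45 ± 1.06), each with a wide error.

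**Figure D3:**
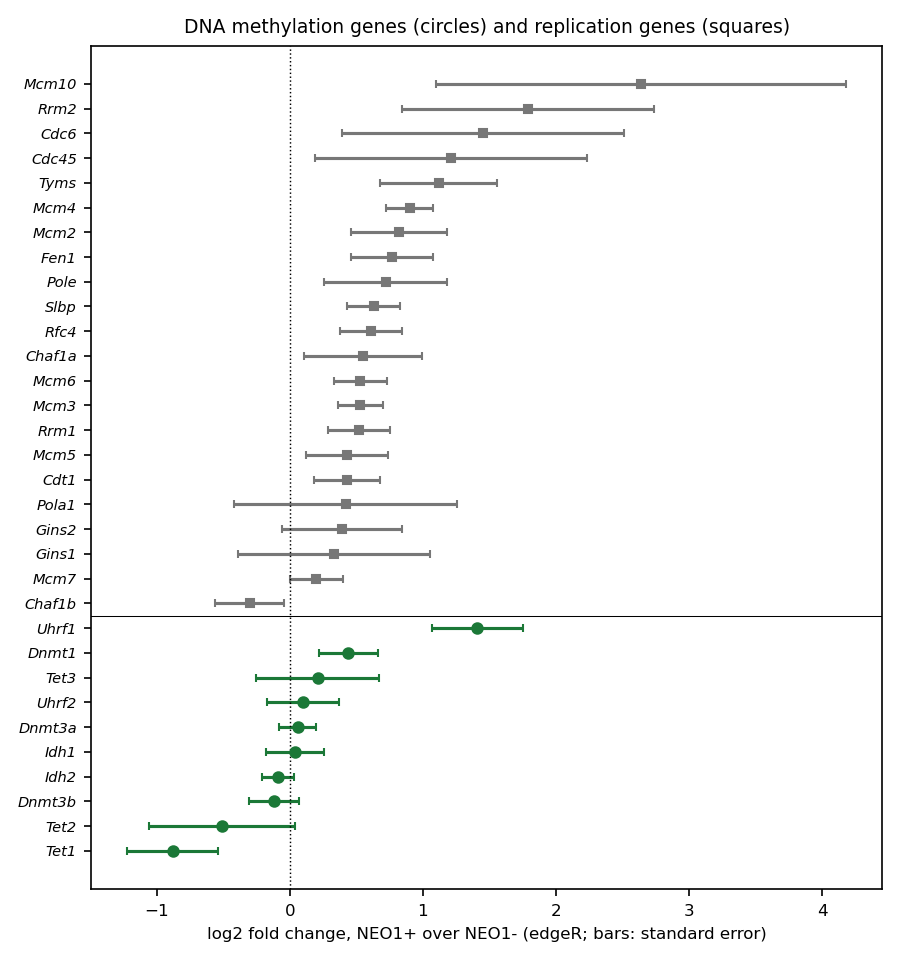
Log2 fold change (NEO1+ over NEO1-, edgeR) with its standard error for the 10 DNA methylation genes (green circles) and the 22 replication genes (grey squares). Uhrf1, at 1.41, lies among the upper replication genes, Dnmt1 at 0.44 among the lower ones, and the other members lie between -0.88 and 0.21.

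The mean log2 CPM of the 22 genes, taken as the replication level of a library, was 5.34, 5.40, 5.57, 5.88 and 5.38 across NEO1+ libraries 1 to 5 and 4.61, 3.57, 3.99, 5.14 and 4.31 in NEO1- libraries 1 to 5. In this unweighted mean, genes of low level such as Mcm10 (means of 10.3 and 1.65 CPM) weigh as much as the others. The level differed by 1.19 between groups, while the edgeR log2 fold changes of the same genes had a median of 0.58. Those of Dnmt1 and Uhrf1 were 0.44 and 1.41. Each member's log2 CPM was set against this level. Uhrf1 stood at 0.30 ± 0.29 relative to it among NEO1+ and at -0.01 ± 0.49 among NEO1- libraries, a difference of 0.30 with overlapping groups, beside a difference of 1.19 in the replication level itself. Dnmt1 stood at 1.21 ± 0.37 among NEO1+ and 1.90 ± 0.54 among NEO1- libraries, with overlapping groups, a difference of -0.69. The 8 other members differed by between -1.02 (Uhrf2) and -2.10 (Tet1) against it. Of these, Dnmt3a, Dnmt3b, Uhrf2, Tet1 and Tet2 did not overlap between groups, with NEO1+ lower, as was so for 24.6% of all genes on this scale. A gene with equal levels in both groups comes out lower in NEO1+ here by the difference in the replication level. Such a separation therefore does not by itself show a change of the gene.

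Inside each group, where the difference between groups cannot enter, Uhrf1 had the highest correlation with the replication level of the 10 genes over all libraries. The correlation of deviations from the group means over 10 libraries was r = 0.76 (Pearson, exact permutation within groups p 0.033) and rho = 0.87 (Spearman, exact permutation p 0.0106). Adjusted over the 12181 genes outside the list both were 1, so neither passed; r was 0.77 without the libraries farthest from the median, NEO1- libraries 2 and 4. For Dnmt1 r was 0.41 and rho 0.16 (exact permutation p 0.425 and 0.695, adjusted 1 for both), and r was -0.01 without the same libraries, so that relation rests on them. Dnmt3a, at r = 0.14 over all libraries, had 0.79 without them, and Idh2 went from -0.51 to 0.22. Uhrf2, Tet2 and Tet3 had r of 0.62, 0.60 and 0.48 and rho of 0.62, 0.55 and 0.56 (exact permutation p between 0.0758 and 0.162, adjusted 1), and r of 0.56, 0.59 and 0.56 without those libraries. For Dnmt3a, Dnmt3b, Tet1, Idh1 and Idh2 over all libraries, r lay between -0.51 and 0.14 and rho between -0.52 and 0.13 (exact permutation p of at least 0.198, adjusted 1). Values of one library share its depth and scaling.

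**Figure D4:**
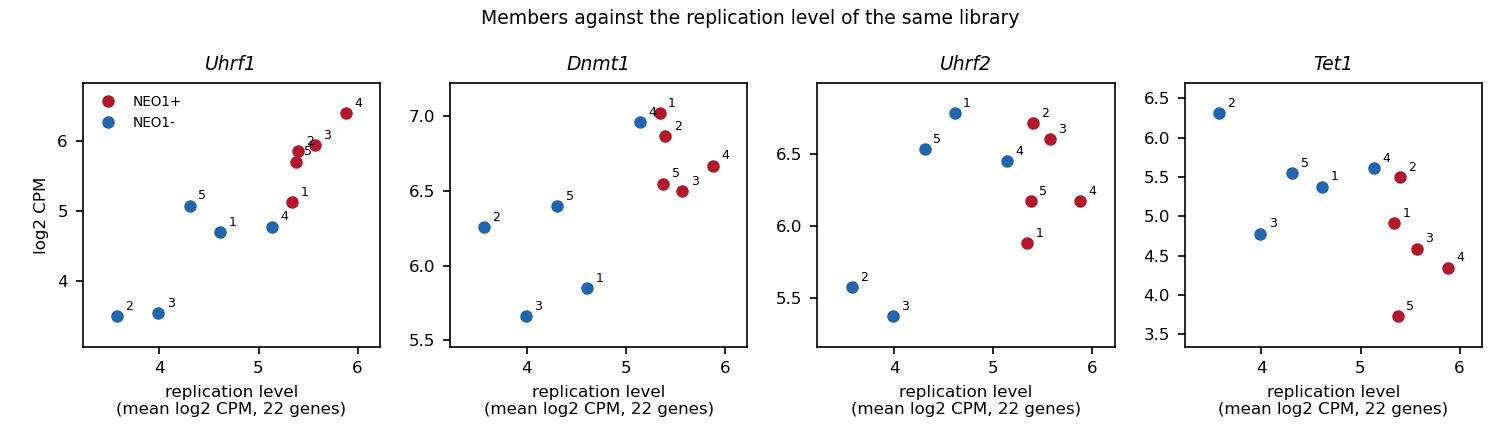
Log2 CPM of Uhrf1, Dnmt1, Uhrf2 and Tet1 against the replication level of the same library (mean log2 CPM of 22 genes), with points numbered by library (red NEO1+, blue NEO1-). Uhrf1 in NEO1- library 5 (5.08) is the highest of its group at a replication level of 4.31. Dnmt1 in NEO1- library 4 (6.96) lies within the NEO1+ range of Dnmt1, at a replication level (5.14) below those of the NEO1+ libraries. Tet1 is lowest in NEO1+ library 5 (3.73).

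Other genes of the pathway were read by list. Of 7 tested partners of maintenance methylation, 5 were higher and 2 lower, with a median log2 fold change of 0.25. The chromatin remodeler Hells, which maintenance methylation needs at heterochromatin, was at 20.3 ± 7.65 and 8.43 ± 4.86 CPM (log2 fold change 1.26 ± 0.50, edgeR adjusted p 0.633). Lig1, the ligase that joins Okazaki fragments and is bound by UHRF1, was at 50 ± 11 and 32.3 ± 10.8 CPM (0.63 ± 0.27, edgeR adjusted p 0.716). Pcna, the sliding clamp (0.25 ± 0.17), and the deubiquitinase Usp7 (-0.29 ± 0.39) had smaller values relative to their errors. Hells and Lig1 took the direction of Uhrf1, and their groups overlapped.

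Of 7 methyl-CpG readers, 4 were higher and 3 lower (median 0.07). The log2 fold change was 0.48 ± 0.38 for Mbd2 and -0.28 ± 0.26 for Mbd1, both methyl-CpG binding proteins. Of 13 tested genes of active demethylation and base repair, 7 were higher and 6 lower (median 0.01). The uracil glycosylase Ung was at 24.7 ± 9.2 and 12.1 ± 8.4 CPM (1.03 ± 0.52, edgeR adjusted p 0.80), and Smug1, another uracil glycosylase, at 7.37 ± 4.23 and 16.5 ± 6.11 CPM (-1.16 ± 0.53, edgeR adjusted p 0.745). Neil3, another DNA glycosylase, ranged from 8.97 to 15.2 CPM among NEO1+ and from 0 to 10.9 CPM among NEO1- libraries.

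Of 11 tested genes of the methyl donor cycle, which makes S-adenosylmethionine, 6 were higher and 5 lower (median 0.01). The smallest p was that of Mthfd1, a folate enzyme (log2 fold change 0.31 ± 0.16, edgeR adjusted p 0.80). Of 16 genes of 2-oxoglutarate metabolism, 10 were higher and 6 lower (median 0.11). Glutamate dehydrogenase, Glud1, averaged 122 ± 14.9 CPM among NEO1+ and 173 ± 36.1 CPM among NEO1- libraries (-0.51 ± 0.16, edgeR adjusted p 0.529), and Idh3g, a subunit of the mitochondrial NAD-dependent isocitrate dehydrogenase, at 140 ± 9.86 and 175 ± 22.8 CPM (-0.32 ± 0.12, edgeR adjusted p 0.596). Dlst, a subunit of the 2-oxoglutarate dehydrogenase complex, was at 92.8 ± 20.3 and 69.2 ± 4.68 CPM (0.42 ± 0.17, edgeR adjusted p 0.633). In these 5 lists, of 7, 7, 13, 11 and 16 tested genes, 0 genes passed the edgeR adjusted threshold. An unadjusted edgeR p under 0.05 was found for 3 genes with higher and 4 with lower values in NEO1+, against 3.11% and 3.49% of all genes.

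Genes whose log2 CPM over the 10 libraries was most like that of a member are given as a description, with Pearson's r over libraries that share depth and scaling. For Uhrf1 they were Lgals3bp (0.964), Myh10 (0.952) and Fancl (0.951). For Dnmt1 they were Gpank1 (0.949), Zfp82 (0.923) and Chid1 (0.923), and for Tet1 BC028528 (0.952), Eif3h (0.925) and Bloc1s1 (0.878). For Idh2 the closest was Ccdc50 (0.932). Among members, deviations from the group means went together most for Uhrf1 with Uhrf2 (r = 0.81) and most oppositely for Dnmt3a with Idh1 (r = -0.82), of 45 pairs.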

How the data were processed

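The deposited data are raw counts by gene symbol and, in a second table, log2 values; each log2 value equalled log2 of the count divided by 1 size factor per library, plus 1 (largest difference 5e-14). STAR 2.4, DESeq2 1.22.2 and mm10 are named, without their roles, per the submitters' processing notes; the counting tool and annotation are not given in the sources used here. Libraries had 18 cycles of PCR and no molecular identifiers, so counts are not independent molecules, and reads of a gene and an overlapping antisense gene cannot be told apart (Dnmt3a shares 133 exonic bases with Dnmt3aos, which had 0 counts).

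The counts were fitted with edgeR 4.0.16 (R 4.3.3; filterByExpr, TMM, robust quasi-likelihood test), with 12203 genes tested and p-values adjusted by Benjamini-Hochberg over all of them; SE is the size of the log2 fold change divided by the square root of the F statistic. Values per library on the log2 scale use a prior count of 2. Alternatives were DESeq2 1.42.0, limma 3.58.1 (voom on counts, trend on the deposited log2 values), RLE scaling, no filter on low counts, a replicate block, no Rn45s, genes detected as a covariate, and each library left out; leaving out both libraries numbered 4 was added after the data were seen. The fit was tested on simulated data. The members and lists were chosen with earlier results of these data known. Named are all members, of each list up to 3 genes per direction of smallest p, those closest in pattern to members, and others chosen after their values were seen (some replication genes, Dnmt3l). Some genes that this rule names are not reported here.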

Additional observations from a re-analysis of the deposited data

Results flagged for a closer look

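The 10 genes and the replication level were examined for single libraries far from the rest of their group. In 22 groups of 5 values, 3 had such a library, where 1.1 are expected by chance. NEO1+ library 4 had 6.97 log2 CPM of Dnmt3a, where the rest of the group had 6.62 to 6.72. NEO1- library 5 had 5.55 log2 CPM of Dnmt3b, where the rest had 6.28 to 6.52. NEO1+ library 5 had 2.56 log2 CPM of Tet3, where the rest had 4.54 to 5.03, and its count there was 201.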

How the results depend on the processing

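All alternatives kept Uhrf1, Dnmt1 and Tet3 higher and Tet1, Tet2 and Dnmt3b lower in NEO1+, except Tet3 with genes detected as a covariate (-0.077 on the log2 scale). That covariate, which largely followed the group, also gave -0.11 for Uhrf2, 0.079 for Idh2, 0.065 for Dnmt1 and 0.97 for Uhrf1 (unadjusted edgeR p 0.0666 for Uhrf1). For Uhrf1 the unadjusted p was under 0.05 in all other settings. Over all genes, 0 passed in edgeR, 2 without the filter on low counts, 2 with limma-voom, 1 with limma-trend on the deposited values, 146 by DESeq2, and 742 by DESeq2 fitted with a replicate block. DESeq2 called 1 member, Uhrf1 (1.40, adjusted p 0.0147). DESeq2 with the replicate block called 2, Uhrf1 (1.49, adjusted p 2.37e-04) and Tet1 (-0.92, adjusted p 0.02), where it called 5.69% of genes. edgeR with the replicate block called 0 members and gave 1.49 for Uhrf1 (adjusted p 0.433), 0.50 for Dnmt1 and -0.91 for Tet1. Same-numbered libraries deviated together with correlations of 0.004 to 0.036, against means of -0.017 to 0.009 with the other numbers. Of the 5 NEO1+ libraries, 3 correlated best with their own number. These small values do not settle whether the numbers mark pairs, and the main fit did not take them as pairs. The cause of the changes between settings was not tested.

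With each library left out in turn, 0 or 1 gene and 0 members passed in edgeR. The log2 fold change ranged from 1.23 to 1.61 for Uhrf1, 0.31 to 0.66 for Dnmt1, -1.16 to -0.63 for Tet1, -0.76 to -0.13 for Tet2, 0.04 to 0.46 for Tet3, -0.26 to -0.062 for Dnmt3b, -0.026 to 0.10 for Dnmt3a, -0.055 to 0.27 for Uhrf2, -0.069 to 0.22 for Idh1 and -0.14 to -0.0094 for Idh2. The signs of Dnmt3a, Uhrf2 and Idh1 therefore turned with single libraries. Without both libraries numbered 4 the values were 1.33 for Uhrf1, 0.68 for Dnmt1, -0.80 for Tet1 and -0.022 for Dnmt3a. The members' smallest count was 126; counts are not independent molecules, so this number does not bound the error of sampling.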
